A study of Homo sapiens with 47 samples.

Results

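The Frizzled receptors were followed as a family of 10 genes, FZD1 to FZD10, out of the 58051 genes listed in each of 47 bulk RNA-seq libraries. The members were taken by gene identifier, matched to GENCODE 29 symbols on GRCh38, and all 10 passed the filter on low counts in both the time-course and the fraction fits, so every member has a test. The libraries came from WA09 (H9) cells, a single established human embryonic stem cell (hESC) line, differentiated in 3 experiments that are numbered as replicates 1 to 3. Undifferentiated hESCs in mTESR1 on Matrigel were collected at t0. All other groups were grown in N2B27 without vitamin A with CHIR-99021 (an inhibitor of glycogen synthase kinase 3 that switches on WNT target genes downstream of the receptors), rhFGF2, AGN193109 (an inverse agonist of retinoic acid receptors) and Y-27632 (a ROCK inhibitor), whose dose differed between passages per the study's methods. Cells were sampled as neuromesodermal progenitor (NMP)-like cells after 36 h, and then at each passage from P1 to P10. The paper describes P1 cultures as heterogeneous, with some cells of the NMP signature, and separate pre-neural progenitors and neural crest by P5. Whole cultures made up 35 libraries, with 3 at each time point except P9, where replicates 1 and 2 were used. The other 12 libraries were fractions of the P5 and P8 cultures, enriched for epithelial (EPI) or mesenchymal (MES) cells by how readily TrypLE detached them, with 3 libraries in each of the 4 fraction groups.

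Frizzled proteins are 7-pass membrane receptors that bind WNT ligands through a cysteine-rich domain outside the cell. With the co-receptors LRP5 and LRP6 they pass the signal to Dishevelled and stabilise β-catenin, and with ROR or planar polarity proteins they act on the cytoskeleton instead. By sequence the family falls into FZD1, FZD2 and FZD7, into FZD5 and FZD8, into FZD4, FZD9 and FZD10, and into FZD3 and FZD6. The first group contains the main WNT receptor of hESCs, FZD7, and the WNT5A receptor FZD2. FZD4 is also the receptor of Norrin, and FZD3 and FZD6 are best known for axon guidance and planar cell polarity.

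The site through which every Frizzled hands its signal to Dishevelled is shown first, because it is common to all the members whatever their level. It was searched in the coding strand and reading frame as the codons AAA or AAG, then ACN, 3 codons of any sequence, and TGG. Each of the 10 genes held exactly 1 match in its longest coding sequence, against 2.21% of 19529 protein-coding genes with at least 1 match, and 2.78% of the 2552 whose coding length lay within that of the Frizzled genes (1611 to 2118 bases). The stretch lies in the single exon of FZD7 (chr2:202036301-202036318, plus strand), FZD10 (chr12:130164518-130164535, plus strand), FZD1 (chr7:91266753-91266770, plus strand), FZD8 (chr10:35639591-35639608, minus strand) and FZD2 (chr17:44559315-44559332, plus strand), and in exon 2 of 2 of FZD5 (chr2:207767150-207767167, minus strand) and FZD4 (chr11:86951244-86951261, minus strand), all on GRCh38. Capitals mark the fixed codons of the motif. These are the 7 receptors that were called in the test over all time points:
FZD7: AAGACCctgcagtcgTGG
FZD10: AAGACTctgcagtccTGG
FZD1: AAGACCctcaactccTGG
FZD2: AAGACGctgcactcgTGG
FZD4: AAAACTcttcacacgTGG
FZD5: AAGACGgtggagtcgTGG
FZD8: AAGACGctggagtccTGG
FZD7 and FZD10, which led the family before and after the switch described below, differed at 2 of the 18 bases. FZD2 and FZD7 also differed at 2 bases, as did FZD5 and FZD8, and FZD4 differed from FZD5 and from FZD8 at 7. After the motif, FZD1, FZD2 and FZD7 each had 51 coding bases left, FZD4 had 99, FZD10 had 150, FZD5 had 165 and FZD8 had 243.

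Reads were 75 bases long, so a stretch of that length shared by 2 genes cannot be assigned to either. FZD1 and FZD2 shared 7 such windows, which were 0.102% of the windows of FZD1 and 0.343% of those of FZD2, inside an identical run of 81 coding bases (chr7:91266062-91266142 and chr17:44558645-44558725, both plus strand, GRCh38). It is shown because it was the only identical stretch of at least a read's length between 2 members:
FZD1 and FZD2: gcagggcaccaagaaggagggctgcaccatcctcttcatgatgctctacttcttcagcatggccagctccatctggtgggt
Outside the family, FZD4 shared 17.2% of its windows with PRSS23, an overlapping gene. The expected counts of FZD4 were whole in all 47 libraries, so they show no read divided between the 2 genes. FZD6 shared 1.47% with BAALC-AS1. For FZD5, FZD7, FZD9 and FZD10 no window was shared with another gene.

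Libraries held from 13029491 to 64082859 expected counts, with a median of 47292229. The summed level of 5 pluripotency genes was 3382 to 3818 TPM (transcript abundance corrected for length and depth) at t0 and at most 140.3 TPM at P5. In P1 replicate 1 it was still 1503 TPM, above the 928 TPM of 36 h replicate 3, against 127.6 and 111 TPM in P1 replicates 2 and 3. In the P5 fractions 9 neural crest genes summed to 181 to 349 TPM in EPI and 484 to 676 TPM in MES, and 6 pre-neural genes summed to 466 to 728 TPM in EPI and 87.8 to 257 TPM in MES, without overlap. In the P8 fractions both sums overlapped between EPI and MES across experiments, while within each of the 3 cultures the neural crest sum was higher in MES (194 and 351, 494 and 533, 857 and 1148 TPM in EPI and MES) and the pre-neural sum was higher in EPI (657 and 452, 279 and 182, 186 and 51.8 TPM). CDH1, the classical epithelial cadherin, was close to absent in the epithelial fractions (0.12 ± 0.04 TPM at P5, SD, n = 3), and EPCAM was low (3.92 ± 0.96 TPM). By the distance over all genes most libraries lay nearest to one of the same or a neighbouring time point, in either direction. Replicate 1 lay nearest to a library of the time point before at P1, P2 and P3, P9 replicate 2 lay nearest to a P8 MES fraction, and the only libraries nearest to one further away were P4 replicate 2 (to P6) and P10 replicate 1 (to P7). The whole P8 culture of replicate 3 had a value between those of its own EPI and MES fractions for 2 of the 10 Frizzled genes and for 32.5% of 13297 genes, against 5 to 10 Frizzled genes and 40.4% to 65.7% of genes in the other 5 cultures.

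Over the 12 time points the range of the mean level differed widely between the Frizzled genes. FZD10 spanned the widest range, from a mean of 0.33 TPM at t0 to 208 TPM at P10, a factor of 631 on the TPM scale. FZD5 spanned a factor of 96.6, FZD1 31.9, FZD8 12.1, FZD7 9.70, FZD6 5.50, FZD4 4.15 and FZD2 2.59. Most of these factors were larger without P10 replicate 1, which stood apart from the other late libraries. FZD5 then spanned 166, with its lowest mean at P10 in place of P9, and FZD7 spanned 20.5, which puts FZD7 before FZD8 (17.4). FZD10 then spanned 763, FZD6 6.47, FZD4 5.33 and FZD2 2.86, while the factor of FZD1 was the same. FZD9, a receptor of the FZD10 group, never exceeded 4.66 TPM in any whole culture and spanned a factor of 1.99, and FZD3 spanned 1.29. Because these are bulk libraries, fewer cells of a type and less RNA per cell cannot be told apart in any of these values.

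**Figure D1:**
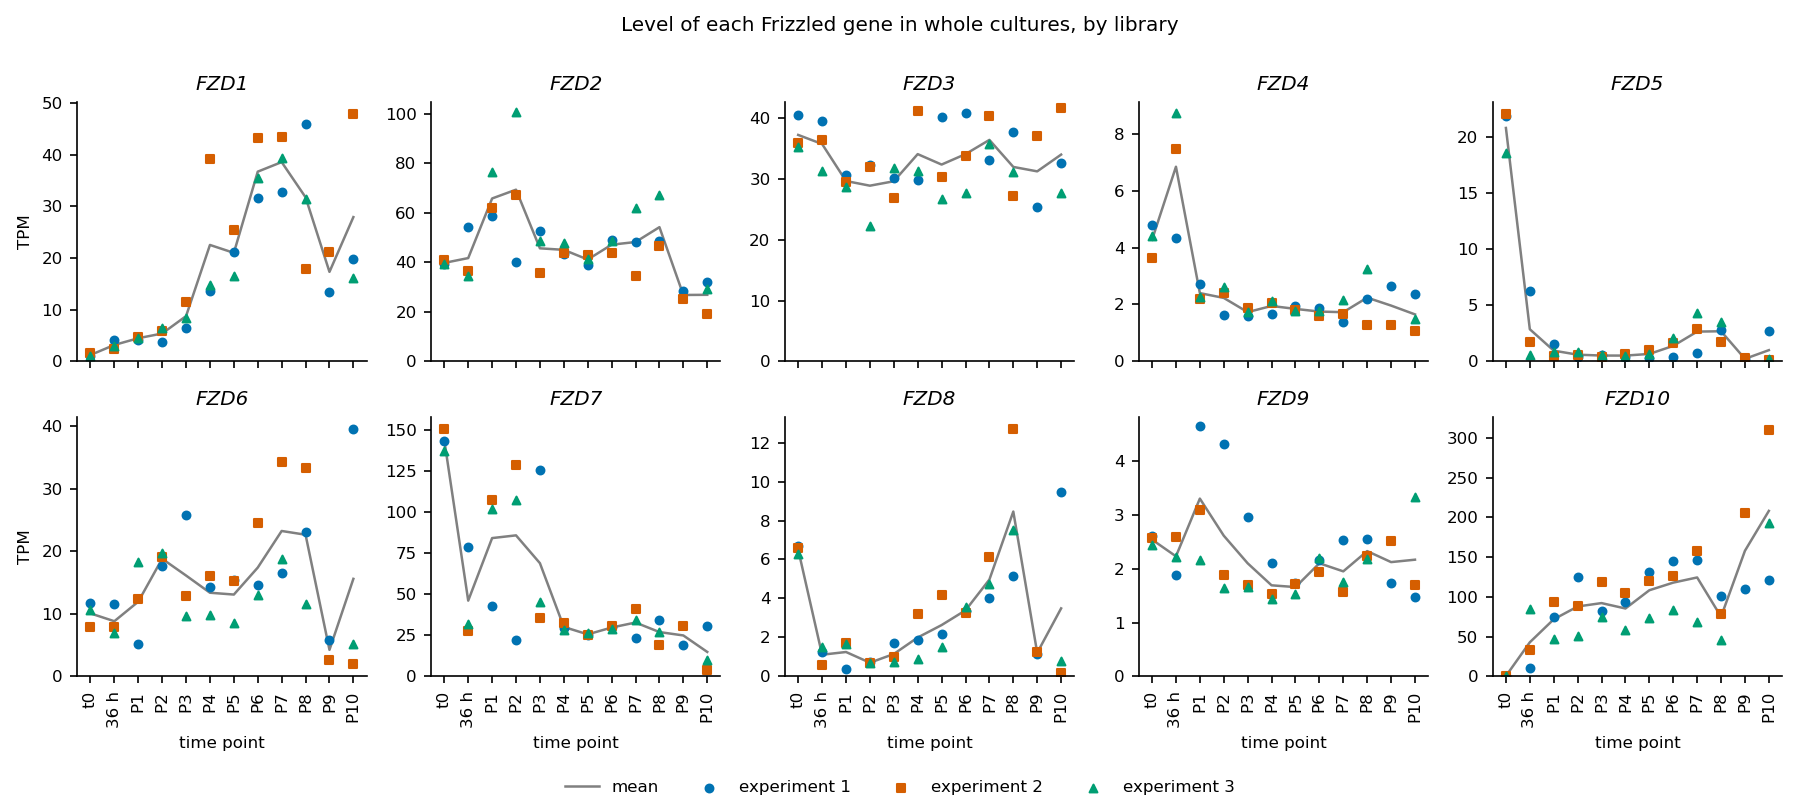
Level in TPM (vertical axis, 1 linear scale per gene) of each Frizzled gene in the 35 whole-culture libraries by time point (horizontal axis), with 1 colour and symbol per experiment and a grey line through the means. FZD5 was high at t0 and low later, FZD7 was highest at t0 and returned to over 100 TPM in 5 libraries of P1 to P3, FZD10 was near 0 at t0 and reached 310.6 TPM in P10 replicate 2, and FZD3 stayed between 22.3 and 41.7 TPM in all libraries.

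In a single test of any change over the 12 time points, 7 of the 10 receptors were called (FZD1, FZD2, FZD4, FZD5, FZD7, FZD8 and FZD10). Here a call means an edgeR quasi-likelihood test with a Benjamini-Hochberg false discovery rate (FDR) under 1% over all genes tested, a change of 2-fold or more, and an average of 100 or more normalized counts. Of all 21750 genes tested 27.0% were called. The adjusted p was 1.13e-09 for FZD1, 2.57e-07 for FZD10, 1.41e-06 for FZD4, 6.05e-06 for FZD5, 9.51e-05 for FZD2, 0.00025 for FZD7 and 0.00544 for FZD8. FZD3 (adjusted p = 0.179), FZD9 (0.197) and FZD6 (0.2) were not called. Without replicate 2 only FZD1, FZD4 and FZD10 were called, when the share over all genes was 11.6%. Without replicate 3 these and FZD5 were called (14.9% of all genes), and without replicate 1 FZD6 joined the 7 (30.1%).

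Summed TPM over the 10 genes was 266 ± 9.61 at t0 (SD, n = 3), 191 ± 30.3 at 36 h, 248 ± 43.5 at P5, 258 ± 39.7 at P8 and 336 ± 80.3 at P10. At t0 FZD7 held 52.7%, 55.3% and 53.8% of that sum in replicates 1, 2 and 3. At P5 FZD10 held 47.2%, 44.9% and 37.0%, and at P10 it held 41.5%, 72.5% and 67.2%. FZD7 was the most abundant receptor by TPM in 9 of the 35 whole cultures, which were the 3 at t0, 36 h replicate 1, replicates 2 and 3 of both P1 and P2, and P3 replicate 1. FZD10 was the most abundant in 24, FZD3 in 36 h replicate 2 and FZD2 in P8 replicate 3. Ranked by normalized counts, which are not divided by length, the leading receptor was the same one in 43 of the 47 libraries.

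**Figure D2:**
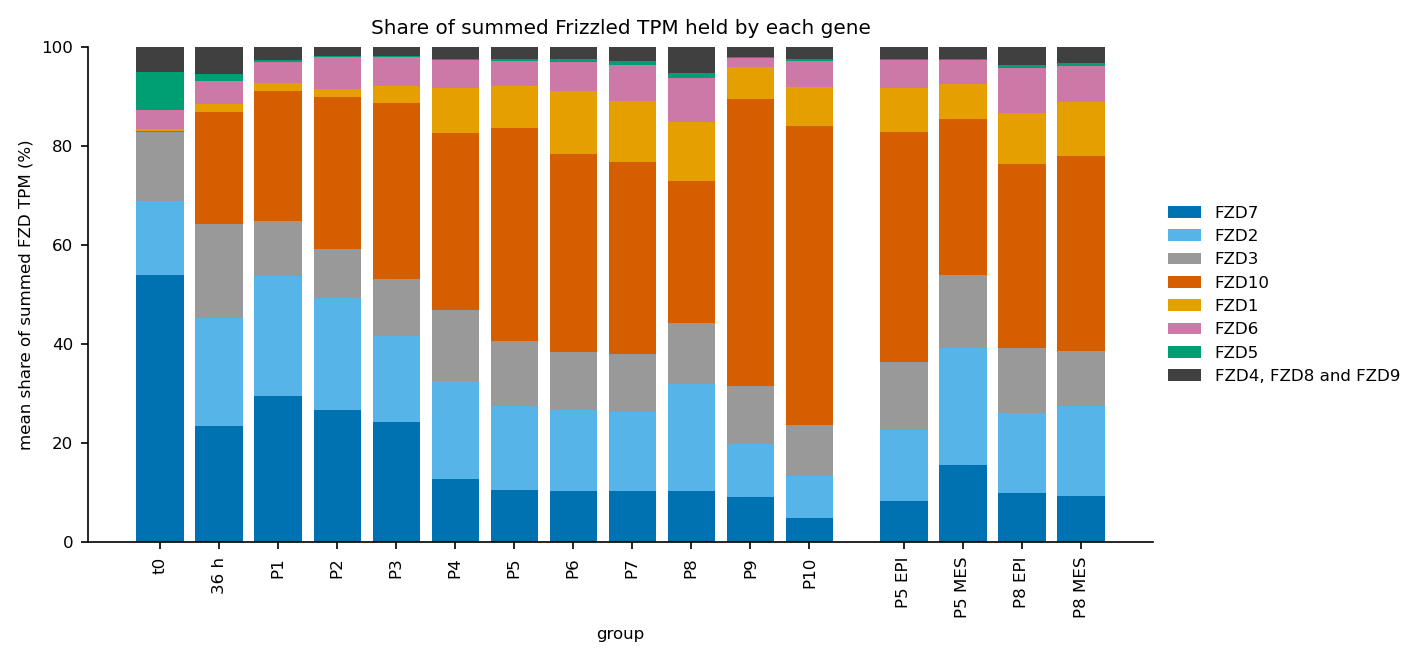
Mean share of the summed Frizzled TPM (vertical axis, percent) held by each receptor in the 16 groups (horizontal axis), with FZD4, FZD8 and FZD9 pooled. Each bar is the mean of 3 libraries, or of 2 at P9. The share of FZD7 went from a mean of 53.9% at t0 to 4.96% at P10 while that of FZD10 went from 0.124% to 60.4%, and without P10 replicate 1 the means at P10 were 2.21% for FZD7 and 69.9% for FZD10.

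The passage from hESCs to NMP-like cells was the first comparison, which asks what the first 36 h in the differentiation medium did to the receptors. FZD10, a receptor best known as an antibody target in synovial sarcoma, stood at 0.30, 0.34 and 0.35 TPM at t0 in replicates 1, 2 and 3. At 36 h its level was 10.6, 33.1 and 84.7 TPM in the same order. All 3 libraries at 36 h lay far above all 3 at t0, although they differed among themselves by more TPM than those of any other receptor. FZD10 (ENSG00000111432) rose 140-fold, a log2 fold change of 7.13 ± 0.67 (± SE here and below, adjusted p = 1.24e-07 in edgeR), and was the 1 Frizzled gene of 10 called in this comparison, where 2.71% of all genes tested were called. At an FDR of 5% it was joined by FZD1, FZD5 and FZD8, which makes 4 of 10 against 4.43% of all genes, and DESeq2 called the same 4 receptors at 1%, against 4.05% of all genes. The call held in each of the 13 alternatives, with a log2 fold change from 4.6 to 7.54 and an adjusted p of at most 0.00796.

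FZD10-AS1, a non-coding gene that lies head to head with FZD10 (chr12:130144315-130162256 on the minus strand, against chr12:130162459-130165740 on the plus strand for FZD10), had levels of 0.09, 0.19 and 0.10 TPM at t0 and 4.13, 2.19 and 7.12 TPM at 36 h. It rose by 5.06 ± 0.43 on the log2 scale (edgeR, adjusted p = 2.84e-08, and 2.82e-27 to 0.00848 over the alternatives). The call was lost without replicate 3 (4.53, adjusted p = 0.00193), where its average of 88.0 normalized counts lay under the minimum. The ranges of the gene models do not overlap.

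FZD7 (ENSG00000155760) lay the other way. Its level was 143.2, 150.3 and 137.2 TPM at t0 and 78.6, 27.8 and 31.8 TPM at 36 h, so the groups did not overlap, and replicate 1 stood well above the other two. The log2 fold change was -1.74 ± 0.59 and was not called (edgeR, adjusted p = 0.0548). It was called in 1 of 13 alternatives, the fit without replicate 1, at -2.27 (adjusted p = 0.000389, with a range of 0.000389 to 0.464 over the alternatives). The 36 h libraries were also ordered by their marker genes: the 5 pluripotency genes summed to 2569, 1845 and 928 TPM and the 6 NMP genes to 324, 1054 and 1577 TPM in replicates 1, 2 and 3, and the part of that in the values of the receptors was not tested.

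FZD5, which together with FZD8 forms the second group of the family, was at 21.8, 22.0 and 18.5 TPM at t0 and at 6.23, 1.73 and 0.59 TPM at 36 h. FZD8 was at 6.69, 6.58 and 6.26 TPM at t0 and at 1.24, 0.60 and 1.48 TPM at 36 h. For both, every 36 h library lay below every t0 library. Their log2 fold changes were -3.03 ± 0.92 for FZD5 (edgeR, adjusted p = 0.0303) and -2.55 ± 0.80 for FZD8 (adjusted p = 0.0367), which pass an FDR of 5% and not the 1% used here. Over the 13 alternatives the adjusted p ran from 9.2e-05 to 0.329 for FZD5 and from 0.00466 to 0.234 for FZD8.

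FZD1 had low levels at both times, 1.02, 1.68 and 0.93 TPM at t0 and 4.18, 2.40 and 2.88 TPM at 36 h, again without overlap. Its log2 fold change was 1.42 ± 0.36 (edgeR, adjusted p = 0.0101, just outside the threshold), and over the alternatives the adjusted p ran from 0.000854 to 0.218. Thus 5 of the 10 receptors (FZD1, FZD5, FZD7, FZD8 and FZD10) had groups that did not overlap, against 39.0% of all genes tested. Overlap was read from normalized counts here and in the counts that follow. FZD2, FZD3, FZD6 and FZD9 had log2 fold changes between -0.28 and 0.03, with an adjusted p of at least 0.518. FZD4 was at 4.79, 3.64 and 4.4 TPM at t0 and at 4.34, 7.47 and 8.74 TPM at 36 h, with a log2 fold change of 0.68 ± 0.29 (adjusted p = 0.133).

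**Figure D3:**
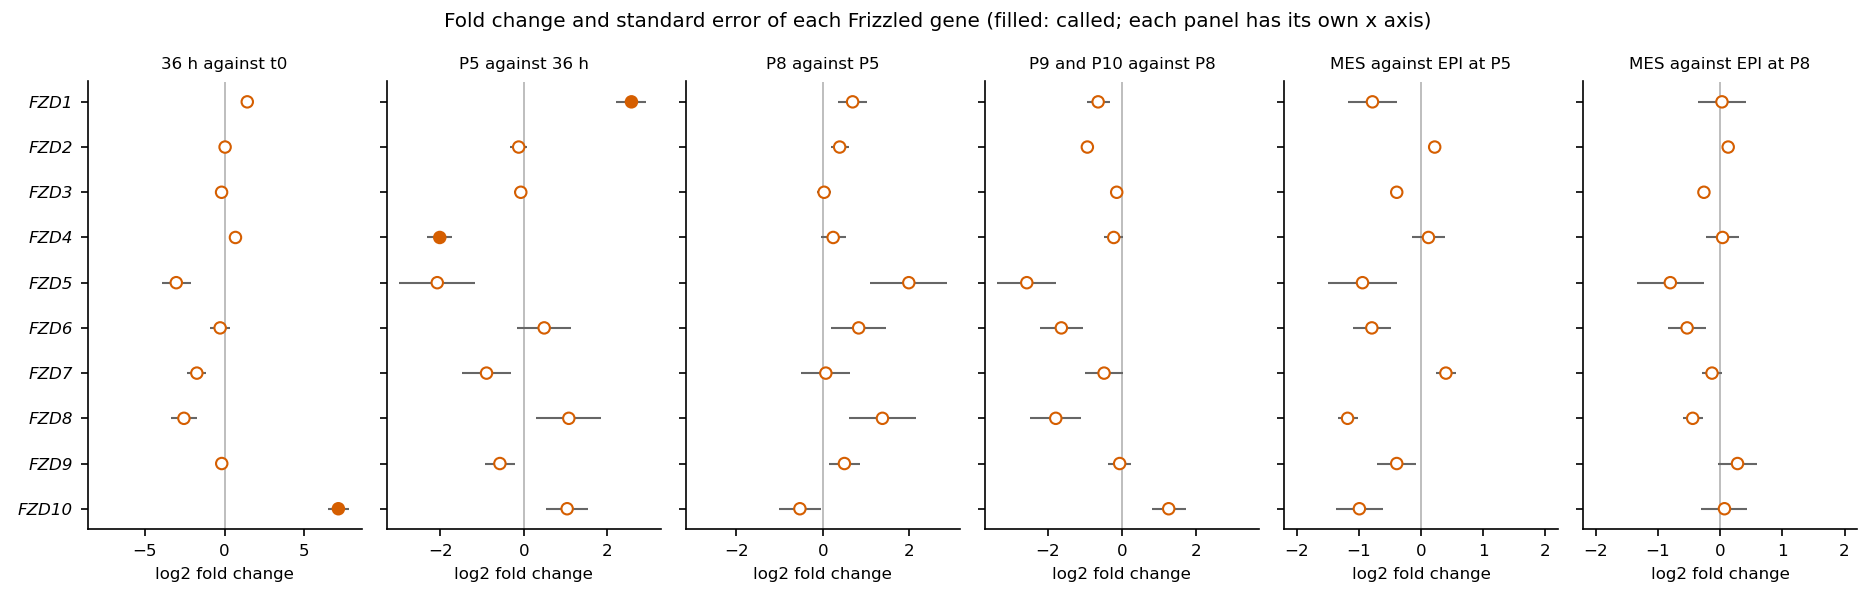
Log2 fold change with its standard error (horizontal axis, own scale per panel) of each Frizzled gene in 6 comparisons, from edgeR with the experiment as a block. Filled points were called, and the called points are FZD10 at 36 h against t0, and FZD1 and FZD4 at P5 against 36 h.

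Between 36 h and P5, where NMP-like cells gave way to cultures of pre-neural progenitors and neural crest, FZD1 and FZD4 were called. FZD1 was at 4.18, 2.40 and 2.88 TPM at 36 h and at 21.1, 25.4 and 16.5 TPM at P5, so every P5 library lay above every 36 h library. FZD1 (ENSG00000157240) rose 5.99-fold, a log2 fold change of 2.58 ± 0.36 (edgeR, adjusted p = 1.22e-05), and the call held in all 13 alternatives. FZD4, the Norrin receptor, was at 4.34, 7.47 and 8.74 TPM at 36 h and at 1.96, 1.81 and 1.76 TPM at P5, again without overlap. FZD4 (ENSG00000174804) fell by 2.01 ± 0.30 on the log2 scale (adjusted p = 2.1e-05). Without replicate 3 the change of FZD4 was -1.81 with an adjusted p of 0.0101, and over the alternatives the adjusted p ran from 4.25e-11 to 0.0101. Groups did not overlap for FZD1, FZD4, FZD7 and FZD9, 4 of the 10, as for 49.2% of all genes, and 8.33% of all genes were called. Marker genes changed over the same interval, in replicates 1, 2 and 3. The neural crest sum was 32.2, 55.4 and 201 TPM at 36 h and 248, 281 and 521 TPM at P5, with 4 of 9 genes called higher. The NMP sum was 445, 334 and 188 TPM at P5, with 3 of 6 genes called lower than at 36 h. The sum of 4 paraxial mesoderm genes was 8.81, 131.5 and 631.1 TPM at 36 h, in the same order of replicates as FZD4, and 2.56 to 3.79 TPM at P5, with 2 genes called lower. The part of these cells in the values of the receptors was not tested. Comparisons of neighbouring stages share libraries, those of 36 h here and those of P5 and P8 later.

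FZD10 had levels of 131.3, 120.4 and 73.3 TPM at P5, and the highest 36 h library (84.7 TPM) lay above the lowest of these. Its log2 fold change from 36 h to P5 was 1.04 ± 0.51 and was not called (edgeR, adjusted p = 0.117, and 0.00425 to 0.533 over the alternatives). It was called without replicate 3, at 2.48 (adjusted p = 0.00425), and by limma on log2(TPM + 1), at 1.71 (adjusted p = 0.00736). FZD7 was at 24.9, 25.1 and 26.5 TPM at P5, below all 3 libraries at 36 h, with a log2 fold change of -0.89 ± 0.58 (adjusted p = 0.248). FZD10-AS1 rose by 2.00 ± 0.34 on the log2 scale to 13.3, 15.9 and 15.4 TPM (adjusted p = 9.36e-05). That call was lost without replicate 2 (1.77, adjusted p = 0.0179), and the adjusted p ran from 1.37e-08 to 0.0179 over 13 alternatives.

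The route between these points was uneven for FZD7 and depended on the experiment. At P1 FZD7 was at 42.7 TPM in replicate 1 and at 107.5 and 102.0 TPM in replicates 2 and 3. From 36 h to P1 its log2 fold change was 1.0 ± 0.58 (edgeR, adjusted p = 0.315), and it was called without replicate 1, at 1.81 ± 0.3 (0.00147). At P2 it was at 21.8, 128.3 and 107.1 TPM, and at P3 at 125.7, 35.4 and 45.4 TPM. From P4 to P6 all 3 experiments lay together, within 24.9 to 32.6 TPM, and they spread again later, to 23.1, 40.9 and 34.1 TPM at P7 and 30.4, 3.94 and 10.1 TPM at P10. The late high value thus came at P3 in replicate 1 and at P1 and P2 in replicates 2 and 3, and P3 replicate 1 was one of the libraries nearest to an earlier time point. Marker genes also differed between the experiments. The pluripotency sum of P1 is given above, and 4 paraxial mesoderm genes summed to 7.57, 363.5 and 359.3 TPM at P1, 304.8, 66.97 and 83.21 TPM at P2 and 233.3, 12.81 and 24.97 TPM at P3 in replicates 1, 2 and 3. Their part in the level of FZD7 was not tested. FZD2 had its highest mean at P2, at 40.1, 67.2 and 100.5 TPM, although in replicate 1 it was higher at several other time points, with 58.8 TPM at P1.

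Compared step by step, 2 of the 11 steps between neighbouring time points held a called Frizzled gene, 2 calls in all, against 0.469% of the values of all genes over the 11 steps. At an FDR of 5% there were 7 such calls (1.09% of all values) and with DESeq2 also 7 (1.06%), while without replicates 1, 2 and 3 there were 5 (1.17%), 2 (0.0347%) and 1 (0.0452%). The first was the rise of FZD10 from t0 to 36 h. The other was FZD4 from 36 h to P1, which went from 4.34, 7.47 and 8.74 TPM to 2.73, 2.19 and 2.28 TPM and fell by 1.5 ± 0.29 on the log2 scale (edgeR, adjusted p = 0.00323), where 1.19% of all genes were called. This call was lost without replicate 2 (-1.27, adjusted p = 0.196) and without replicate 3 (-1.26, 0.155), where edgeR called 2 and 12 genes in all, and over 12 alternatives the adjusted p ran from 1.71e-05 to 0.196. Of the other steps, P2 against P1 called 0.0276% of all genes, P3 against P2 called 0.00920%, P9 against P8 called 1.22% and P10 against P9 called none with edgeR, each without a Frizzled gene. At P9 against P8, however, 5 of the 10 receptors had an unadjusted p under 0.05, as had 26.3% of all genes. FZD5 (-3.54 ± 1.14, adjusted p = 0.0491) and FZD6 (-2.55 ± 0.79, 0.0419) passed an FDR of 5% with edgeR, where 4.16% of all genes were called, and DESeq2 called both at 1% (adjusted p = 0.00507 and 0.00332), with 3.77% of all genes. FZD2 passed the same FDRs (-0.88 ± 0.24, adjusted p = 0.0221 in edgeR and 0.00341 in DESeq2) but stayed under the 2-fold minimum. The mean of FZD1 went up over most steps to P7 without a call at any of them. It was 4.46 TPM at P1, 5.37 TPM at P2, 8.73 TPM at P3, 22.5 TPM at P4, 21.0 TPM at P5, 36.7 TPM at P6 and 38.6 TPM at P7. The step from P4 to P5 was the exception, with a log2 fold change of -0.04 ± 0.34. The largest step after 36 h was P4 against P3, with a log2 fold change of 1.26 ± 0.35 (adjusted p = 0.505) and levels of 13.6, 39.2 and 14.7 TPM at P4 that all lay above the 6.47, 11.4 and 8.29 TPM at P3. At the 5 steps from P3 to P8 edgeR called 0 genes of any kind, while DESeq2 called from 0 to 11 and no Frizzled gene, and 2 receptor values had an unadjusted p under 0.05, as had 2.79% of the values of all genes over these steps.

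From P5 to P8 no Frizzled gene was called by edgeR, while 1 of the 10 had an unadjusted p under 0.05 (FZD5), as had 13.3% of all genes, and DESeq2 and limma called none either. Of all genes edgeR called 0.00920%, DESeq2 0.713% and limma 0.0322%. Without P8 replicate 3, which stood apart, edgeR called 0%. FZD8 was at 2.17, 4.20 and 1.52 TPM at P5 and at 5.17, 12.7 and 7.53 TPM at P8, without overlap, with a log2 fold change of 1.38 ± 0.77 (adjusted p = 0.453). FZD5 was at 0.32, 0.96 and 0.67 TPM at P5 and at 2.78, 1.74 and 3.49 TPM at P8, also without overlap (1.99 ± 0.89, adjusted p = 0.326). Groups did not overlap for 4 of the 10 receptors (FZD2, FZD5, FZD8 and FZD9) and for 19.3% of all genes tested.

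The late passages P9 and P10 were compared with P8. FZD10 was at 100.9, 78.2 and 45.8 TPM at P8, at 110.2 and 205.7 TPM at P9 and at 121.0, 310.6 and 193.0 TPM at P10. All 5 late libraries lay above all 3 at P8, and the highest level of any Frizzled gene in the series was that of P10 replicate 2. The highest libraries at P5, P6 and P7, at 131.3, 144.5 and 157.7 TPM, lay above the late libraries at 110.2 and 121.0 TPM. The whole P8 culture of replicate 3, at 45.8 TPM, lay below both of its own fractions, which held 131.2 TPM in EPI and 157.9 TPM in MES, above the late libraries at 110.2 and 121.0 TPM. The log2 fold change was 1.26 ± 0.46 and was not called (edgeR, adjusted p = 0.0811, and 0.00794 to 0.614 over 15 alternatives), and without P8 replicate 3 it was 1.08 (adjusted p = 0.238). Marker sums also differed between P8 and the late libraries. The pre-neural sum was 162 to 706 TPM at P8 and 5.29 to 428 TPM late, the neural crest sum was 223 to 824 TPM and 326 to 1199 TPM, 4 neuronal genes summed to 3.15 to 63.0 TPM and 47.3 to 170.0 TPM, and 3 endothelial genes to 0.36 to 0.88 TPM and 1.25 to 14.95 TPM. No gene of these marker lists was called by edgeR, and their part in the level of FZD10 was not tested. FZD2 lay the other way, with 48.7, 46.6 and 67.1 TPM at P8, 28.3 and 25.2 TPM at P9 and 31.95, 19.3 and 29.2 TPM at P10. Its groups did not overlap, and its log2 fold change of -0.93 ± 0.18 passed the FDR (adjusted p = 0.00399, and 0.0237 without P8 replicate 3) but stayed under the 2-fold minimum. Only these 2 receptors had groups that did not overlap, as had 5.36% of all genes.

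Replicate 1 of P10 stood apart from the other late libraries in FZD5, FZD6 and FZD8. FZD6 was at 39.5 TPM in P10 replicate 1, and at 5.77 and 2.68 TPM at P9 and 1.97 and 5.21 TPM in P10 replicates 2 and 3. FZD8 was at 9.49 TPM in P10 replicate 1 and at 0.17 to 1.25 TPM in the other 4 late libraries. FZD5 was at 2.71 TPM in P10 replicate 1 and at 0.09 to 0.25 TPM in the others. At P8 these receptors had been at 23.1, 33.2 and 11.5 TPM (FZD6), 5.17, 12.7 and 7.53 TPM (FZD8) and 2.78, 1.74 and 3.49 TPM (FZD5), so P10 replicate 1 lay within the TPM range of P8 for FZD5 and FZD8 and above it for FZD6. In normalized counts FZD8 was at 892.1 in P10 replicate 1, above the 472.5 to 717.1 at P8. The 2 scales differed for FZD8 at P8, where 12.7 TPM in replicate 2 went with 679.1 normalized counts and 7.53 TPM in replicate 3 with 717.1. The other 4 late libraries lay below the P8 range for all 3 genes on both scales.

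With all libraries, 0 Frizzled genes were called in this comparison by edgeR, DESeq2 or limma, which called 1.25%, 3.40% and 1.59% of all genes. With edgeR 6 of the 10 had an unadjusted p under 0.05, as had 26.2% of all genes. The log2 fold changes were -2.56 ± 0.79 for FZD5 (adjusted p = 0.0414), -1.63 ± 0.58 for FZD6 (0.0702) and -1.78 ± 0.69 for FZD8 (0.0974). Without P10 replicate 1, FZD5 (-3.94, adjusted p = 0.000217), FZD6 (-2.47, 0.000461) and FZD8 (-3.02, 0.000164) were called, where 4.64% of all genes were called. Without P8 replicate 3 no Frizzled gene was called, and 0.341% of all genes. Without all libraries of replicate 1, these and FZD2 (-1.07, 0.00241) and FZD10 (1.80, 0.00794) were called, with 4.13% of all genes. Over the 15 alternatives the adjusted p ran from 0.000217 to 0.331 for FZD5, from 0.000461 to 0.654 for FZD6 and from 0.000164 to 0.485 for FZD8. Among the late libraries the pre-neural marker sum was 428 TPM in P10 replicate 1 and 5.29 to 16.9 TPM in the other 4 late libraries, the neural crest sum was 326 TPM against 971 to 1199 TPM, and the sum of 4 limb and lateral plate genes was 0.53 TPM against 1.05 to 19.2 TPM. The part of these cells in the receptor values was not tested.

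The EPI and MES fractions of P5 were compared to see whether receptors differed between the cell types of 1 culture. FZD10 was at 144.4, 138.0 and 104.4 TPM in EPI and at 69.5, 86.6 and 35 TPM in MES, so it was higher in EPI in 3 of 3 experiments and the groups did not overlap. FZD8 was at 2.40, 4.71 and 2.34 TPM in EPI and at 1.13, 2.32 and 0.79 TPM in MES, lower in MES in each experiment, with the lowest EPI library next to the highest MES library. FZD3 was at 36.4, 41.1 and 36.7 TPM in EPI and at 29.2, 28.5 and 27.0 TPM in MES. FZD7 lay the other way, at 23.1, 23.8 and 22.1 TPM in EPI and at 24.8, 31.2 and 32.7 TPM in MES. By normalized counts the groups of FZD2, FZD3, FZD6, FZD7 and FZD10 did not overlap, which is 5 of the 10, against 31.1% of all genes tested. The neural crest and pre-neural sums given above separated the same libraries, and their part in the receptor values was not tested.

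None of these differences was called by edgeR with the experiment as a block, which called 0 of 18885 genes at P5, although 6 of the 10 receptors had an unadjusted p under 0.05, as had 25.9% of all genes. The log2 difference, MES minus EPI, was -1.18 ± 0.16 for FZD8 (adjusted p = 0.0139), -0.39 ± 0.08 for FZD3 (0.0317), -0.99 ± 0.38 for FZD10 (0.142), -0.79 ± 0.31 for FZD6 (0.15) and 0.40 ± 0.16 for FZD7 (0.17). DESeq2 with the same block called FZD8 (adjusted p = 2.76e-08, and 3.57% of all genes), and limma called no Frizzled gene (0% of all genes). When each P5 or P8 culture was given its own block in place of the experiment, FZD10 (-1.07, adjusted p = 0.00885) and FZD8 (-1.18, 0.00568) were both called along with 1.62% of all genes. Over 14 alternatives the adjusted p ran from 0.00885 to 0.346 for FZD10 and from 2.76e-08 to 0.453 for FZD8. The paper, with DESeq2 and the same FDR and fold thresholds, reported both FZD8 and FZD10 as significantly higher in epithelial cells at P5. FZD10-AS1 did not follow FZD10 here: it was at 12.4, 12.9 and 14 TPM in EPI and at 19.0, 19.7 and 17.2 TPM in MES (0.52 ± 0.11, adjusted p = 0.0306).

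**Figure D4:**
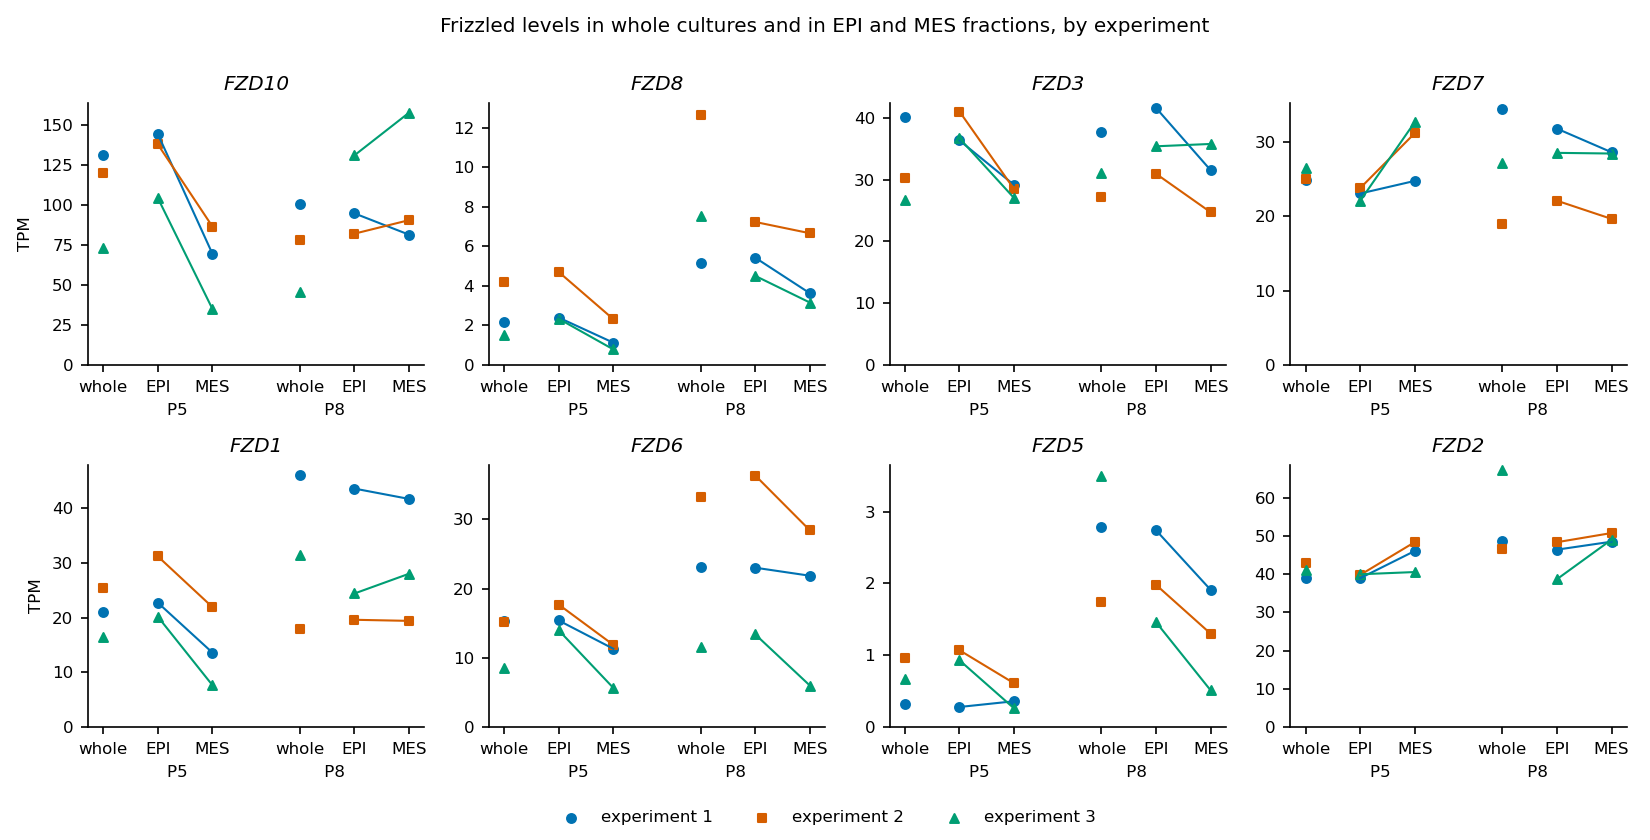
Level in TPM (vertical axis, linear, own scale per gene) of 8 Frizzled genes in whole cultures and in the EPI and MES fractions at P5 and P8 (horizontal axis), with 1 colour and symbol per experiment and lines that join EPI and MES of the same culture. At P5 the FZD10 lines run downwards from EPI to MES in all 3 experiments, and at P8 they run downwards in 1 and upwards in 2.

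At P8 the fractions stood closer together for most receptors. FZD10 was at 94.9, 82.2 and 131.2 TPM in EPI and at 81.5, 90.6 and 157.9 TPM in MES, with ranges that overlapped. FZD8 was at 5.43, 7.24 and 4.51 TPM in EPI and at 3.63, 6.67 and 3.16 TPM in MES, lower in MES in 3 of 3 experiments. edgeR called 0 genes at P8, 2 of the 10 receptors (FZD3 and FZD8) and 12.0% of all genes had an unadjusted p under 0.05, and DESeq2 called 0.291% of all genes but no Frizzled gene. The log2 difference was -0.44 ± 0.16 for FZD8 (adjusted p = 0.351) and -0.26 ± 0.08 for FZD3 (0.324). By normalized counts only FZD3 had groups that did not overlap, as had 8.98% of all genes, while its TPM values of 41.6, 31 and 35.4 in EPI and 31.5, 24.7 and 35.8 in MES overlapped.

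Whether the difference between fractions itself changed from P5 to P8 was tested as an interaction. No gene was called by edgeR, 1 of the 10 receptors (FZD8) and 6.10% of all genes had an unadjusted p under 0.05, and DESeq2 called 1 gene (0.00530%), which was not a Frizzled gene. The interaction was 0.74 ± 0.22 on the log2 scale for FZD8 (adjusted p = 0.816) and 1.06 ± 0.53 for FZD10 (0.826), which leaves the P5 and P8 differences of FZD10 not shown to be unequal. With each culture as its own block, an alternative added after seeing the data, edgeR again called no gene (0%), although 5 of the 10 receptors and 12.3% of all genes had an unadjusted p under 0.05, and the interaction was 1.11 ± 0.23 for FZD10 (adjusted p = 0.264) and 0.75 ± 0.2 for FZD8 (0.288).

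Within a fraction, P8 was also set against P5. In MES, FZD8 was at 1.13, 2.32 and 0.79 TPM at P5 and at 3.63, 6.67 and 3.16 TPM at P8, without overlap. FZD8 (ENSG00000177283) rose 3.26-fold, a log2 fold change of 1.70 ± 0.16, and was the only Frizzled gene called (edgeR, adjusted p = 0.0055), with 0.699% of all genes. This call was lost without the experiment as a block (1.65, adjusted p = 0.0791), without replicate 1 (1.71, 0.0128), without replicate 2 (1.82, 0.118), without replicate 3 (1.60, 0.045) and when all 47 libraries (1.69, 0.166) or only the compared groups (1.73, 0.0539) entered the fit. Without replicate 2, without replicate 3 and with only the compared groups, edgeR called 0 genes of any kind, so those losses are not particular to FZD8. It called 1 gene without the block and 0.0546% of all genes with all 47 libraries. Without replicate 1 it called a larger share of all genes than the 0.699% of the main fit. Over 13 alternatives the adjusted p of FZD8 ran from 8.25e-18 to 0.166. In EPI, FZD8 was at 2.40, 4.71 and 2.34 TPM at P5 and at 5.43, 7.24 and 4.51 TPM at P8, with a log2 fold change of 0.96 ± 0.16 (adjusted p = 0.0174). There edgeR called no Frizzled gene and 0.259% of all genes, and 3 of the 10 had an unadjusted p under 0.05 (31.3% of all genes). DESeq2 and limma called no Frizzled gene either, with 3.21% and 0.222% of all genes called.

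The genes around the receptors in the WNT pathway were taken as lists of co-receptors, receptor turnover, Dishevelled and the β-catenin destruction complex, planar cell polarity, ligands, secreted Frizzled-domain proteins and Norrin signalling. From t0 to 36 h, 4 of 16 WNT ligands tested were called higher and none was called lower. WNT8A rose by 10.31 ± 1.64 on the log2 scale, WNT5B by 6.88 ± 1.00, WNT3 by 4.83 ± 0.39 and WNT5A by 4.27 ± 1.01. The co-receptor ROR2, which binds WNT5A, rose by 3.98 ± 0.44 (1 of 8 co-receptors), the planar polarity protein VANGL1 by 1.15 ± 0.25 (1 of 8), and the feedback inhibitor AXIN2 by 2.57 ± 0.44 (1 of 10 in its list). Among 9 genes of receptor turnover, RSPO3, a ligand that protects Frizzled proteins from degradation, rose by 9.17 ± 1.97, and RNF43, a ligase that removes Frizzled proteins from the membrane, rose by 2.85 ± 0.51. SFRP1, a secreted protein that binds WNTs through a Frizzled-like domain, fell by 4.01 ± 0.66, the only one of 5 in its list to be called. The calls of ROR2 and WNT3 held in all 13 alternatives. Without replicate 3 the others were lost except WNT5B, and without replicate 2 except SFRP1. The adjusted p of these lost calls ran up to 0.434, for WNT5A without replicate 3. Without replicate 2 and without replicate 3, in that order, edgeR called 0.368% and 0.436% of all genes. The log2 fold changes were 10.11 and 10.58 for WNT8A, 4.7 and 1.99 for WNT5A, and 9.26 and 7.55 for RSPO3. They were 2.71 and 3.28 for RNF43, 2.3 and 2.66 for AXIN2, and 0.69 and 1.28 for VANGL1. WNT5B was at 6.95 without replicate 2 and SFRP1 at -4.09 without replicate 3. The median log2 fold change was 1.11 for the ligands and -0.18 for the 10 receptors, against 0.0 for all genes. Higher calls made up 1.33% and lower calls 1.37% of all genes tested.

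From 36 h to P5, 4 of 16 ligands were called lower and none was called higher. On the log2 scale WNT3A fell by 10.35 ± 2.29, WNT8A fell by 8.53 ± 1.5, WNT5B fell by 3.81 ± 0.86 and WNT3 fell by 1.33 ± 0.34. RSPO3 fell by 10.59 ± 2.14 and RSPO4 by 1.76 ± 0.46 (2 of 9 in the turnover list), while AXIN2 rose further by 1.66 ± 0.42 (1 of 10). Among 8 co-receptors ADGRA2 rose by 3.66 ± 0.95 and RECK, its partner in WNT7 signalling, by 1.03 ± 0.27. Of 8 planar polarity genes PRICKLE2 rose by 2.11 ± 0.49 and VANGL1 fell by 1.26 ± 0.25. NDP, which encodes Norrin, the ligand of FZD4, rose by 5.66 ± 0.99, from 0.27 ± 0.09 TPM at 36 h to 11.6 ± 6.16 TPM at P5 (SD, n = 3), over the same interval in which FZD4 fell. The call of NDP held in all 13 alternatives. The other 11 pathway calls of this comparison were lost without replicate 2 and without replicate 3, with an adjusted p of 0.0106 to 0.195. In these fits, in that order, edgeR called 3.43% and 4.6% of all genes, against 8.33% in the main fit. Without replicate 2 and without replicate 3, in that order, the log2 fold changes were -10.39 and -8.39 for WNT3A, -8.63 and -7.54 for WNT8A, -3.8 and -3.26 for WNT5B, and -0.53 and -1.83 for WNT3. They were -10.03 and -9.72 for RSPO3, -1.85 and -1.81 for RSPO4, 2.06 and 1.66 for AXIN2, and 2.53 and 3.12 for ADGRA2. RECK (0.93 and 1.06), PRICKLE2 (1.99 and 2.21) and VANGL1 (-0.95 and -1.33) also kept their signs. Without replicate 1 the calls of RSPO4 (-1.59, adjusted p = 0.0298), AXIN2 (adjusted p = 0.018) and WNT3 (-1.47, 0.0249) were lost. The share of all genes called in that fit was larger than the 8.33% of the main fit. In this comparison 3.78% of all genes were called higher and 4.54% lower.

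From P8 to the late passages the R-spondins RSPO2 (5.68 ± 1.11) and RSPO4 (2.97 ± 0.46) rose on the log2 scale, 2 of 9 in the turnover list. CELSR1, a planar polarity cadherin, fell by 2.25 ± 0.48 (1 of 8) and SFRP2 fell by 3.64 ± 0.78 (1 of 5), while no ligand or co-receptor was called. Each of these 4 calls was lost without replicate 2 and without replicate 3, where edgeR called 0 genes of any kind in this comparison, and those of RSPO2, CELSR1 and SFRP2 also without P8 replicate 3, with an adjusted p of 0.0149 to 0.0237. Without replicate 2 the log2 fold changes were 6.77 for RSPO2, 2.39 for RSPO4, -2.15 for CELSR1 and -4.54 for SFRP2, and without replicate 3 they were 4.73, 2.70, -2.13 and -3.34. The higher calls were 0.772% and the lower calls 0.474% of all genes tested. From P5 to P8 no gene of these lists was called in whole cultures, and in the MES fraction WNT5A, 1 of 14 ligands tested there, rose by 1.3 ± 0.19 on the log2 scale (edgeR, adjusted p = 0.00953). That call was lost without replicate 1 (1.2, adjusted p = 0.0296), without replicate 2 (1.31, 0.147) and without replicate 3 (1.40, 0.0292). In the fits without replicate 2 and without replicate 3 edgeR called 0 genes of any kind in this comparison. The adjusted p of WNT5A ran from 7.32e-09 to 0.36 over 13 alternatives. In the test of any change over time, 5 of 8 co-receptors, 6 of 9 turnover genes, 3 of 10 genes of Dishevelled and the destruction complex, 5 of 8 planar polarity genes, 8 of 16 ligands, 3 of 5 secreted Frizzled-domain genes and 1 of 3 Norrin genes were called, beside 7 of the 10 receptors and 27.0% of all genes.

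As a description of how members varied together, Pearson correlations were taken over the 16 group means of log2 CPM (normalized counts scaled to library size). The groups share experiments, and the fraction groups share cultures, so these are not independent points and have no p. The strongest inverse pairs were FZD1 with FZD7 (r = -0.85, n = 16 groups), FZD1 with FZD4 (-0.82) and FZD5 with FZD10 (-0.81). FZD7 with FZD10 gave -0.73, and the strongest positive pairs were FZD1 with FZD10 (0.75) and FZD3 with FZD5 (0.73). The group means of FZD3 spanned only 0.58 in log2 CPM, the narrowest range in the family, and FZD3 was not called in the test over time. FZD5 and FZD8, the closest relatives of the second group, gave 0.70, and FZD10 with FZD10-AS1 gave 0.96.

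Among 13297 genes that averaged 100 or more normalized counts, the patterns most like that of FZD10, the receptor with the widest range, were those of CCDC92 (r = 0.976), RP9P (0.975) and MACROH2A2 (0.970). Most like FZD5 were CTSV (0.945), ATE1 (0.943) and TDRP (0.942). Most like FZD1 were LIX1 (0.985), NRGN (0.984) and OAF (0.976). All of these are correlations over the same 16 group means, and the ranges of log2 CPM behind them were 9.01 for FZD10, 6.64 for FZD5 and 4.85 for FZD1.

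The remaining receptors are best described by their levels. FZD3, which guides axons in the developing nervous system, lay between 22.3 and 41.7 TPM in every whole culture and was among the 3 most abundant receptors at t0. FZD2 lay between 19.3 and 100.5 TPM with a median of 43.6 TPM. FZD6, the planar polarity receptor, had a median of 13.0 TPM and its lowest and highest values both at P10, 1.97 TPM in replicate 2 and 39.5 TPM in replicate 1. FZD9 had a median of 2.16 TPM and no comparison in which it was called. At t0 the mean levels ran in the order FZD7, FZD2, FZD3, FZD5, FZD6, FZD8, FZD4, FZD9, FZD1 and FZD10, and FZD2 (39.7 ± 0.85 TPM) and FZD3 (37.3 ± 2.91 TPM) did not differ beyond their spread. At P5 the order was FZD10, FZD2, FZD3, FZD7, FZD1, FZD6, FZD8, FZD4, FZD9 and FZD5, where FZD2 (41.1 ± 2.03 TPM) and FZD3 (32.4 ± 6.98 TPM) overlapped, FZD7 (25.5 ± 0.91 TPM) and FZD1 (21.0 ± 4.48 TPM) overlapped, and FZD8 overlapped both FZD4 and FZD9. At P10 FZD10 came first and FZD3, FZD1 and FZD2 followed at 34.0 ± 7.08, 27.9 ± 17.3 and 26.8 ± 6.68 TPM, with ranges that overlapped one another.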

How the data were processed

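Poly(A)-selected RNA was sequenced as 75-base single-end reads. Per the submitters' processing notes, the tools were cutadapt 1.16, STAR 2.5.2b and RSEM 1.3.0 with GRCh38; the annotation release and the strand setting are not given in the sources used here. The authors deposited, per library and gene, RSEM expected counts, in which reads that match several genes are divided between them, and TPM, which are those counts divided by effective length and scaled to the same sum in each library. Expected counts of FZD1, FZD2 and FZD7 were not whole in 44, 43 and 34 of 47 libraries, by at most 0.5 of a read. Total counts limit the precision of low values, and counts up to 3 are treated as not detected; the lowest count of any Frizzled gene was 12.

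Of 58051 identifiers, 57447 matched GENCODE 29, the source of symbols, coordinates and coding sequences (GRCh38). Expected counts were rounded and tested with edgeR 4.0.16 in R 4.3.3 (TMM, filterByExpr, quasi-likelihood F-test), with the experiment number as a block, in 1 fit of 35 whole cultures (21750 genes) and 1 of 12 fraction libraries (18885 genes). The thresholds of a call (FDR 1%, 2-fold, 100 normalized counts on average over the compared libraries) are the study's. Levels of different genes were compared in TPM only.

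The members and lists were chosen with earlier results of these data known. The text names all Frizzled genes and FZD10-AS1, and from each pathway list at most 3 called genes per direction, by size of change (WNT5A at 36 h and WNT3 at P5 were added after their values were seen); likeness was taken for the 3 receptors with the widest range of log2 CPM (prior count 2). Alternatives were DESeq2 1.42.0, its size factors, limma 3.58.1 on log2(TPM + 1), other thresholds and filters, other sets of libraries, other blocks and leaving out each replicate. Leaving out P8 replicate 3, culture blocks in the interaction and spans without P10 replicate 1 were added after seeing the data. Per the series design text each experiment held its own time points and fractions, and a replicate number was taken to mark 1 experiment. Deviations from the group mean of same-numbered libraries correlated at 0.65 (lowest 0.60) between the P5 fractions and 0.78 (0.76) between the P8 fractions, 0.31 (0.10) between P5 and P8, and -0.01 (-0.09) between t0 and 36 h. Every pair of replicates differed by more than counting noise (chi-square per gene at least 25.4). The fitting steps were tested on simulated counts.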

Additional observations from a re-analysis of the deposited data

Results flagged for a closer look

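The log2 ratio of MES to EPI for FZD7 was 0.08, 0.43 and 0.62 at P5 and -0.13, -0.24 and -0.04 at P8 in replicates 1, 2 and 3, of opposite sign in all 3 experiments. The fitted difference at P8 (-0.13 ± 0.16) was smaller than its SE. The interaction of passage and fraction was -0.52 on the log2 scale and did not pass the threshold (edgeR, adjusted p = 0.816). Of 13297 genes that averaged 100 or more normalized counts, 334 (2.51%) showed such opposite directions in all 3 experiments.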

How the results depend on the processing

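Numbers of Frizzled genes called depended on the threshold and on single experiments, as did the shares of all genes called, given in brackets. For 36 h against t0, 1 (2.71%) became 4 at an FDR of 5% (4.43%), 4 with DESeq2 (4.05%), 2 with limma (3.43%) and 1 to 3 when a replicate was left out (0.368% to 3.96%). For P9 and P10 against P8, 0 (1.25%) became 1 at an FDR of 5% (3.61%), 1 with no fold minimum (2.08%), 3 without P10 replicate 1 (4.64%) and 0 to 5 when a replicate was left out (0 to 4.13%); without P8 replicate 3 it was 0 (0.341%). For any change over time, 7 (27.0%) became 3 to 8 when a replicate was left out (11.6% to 30.1%). For neighbouring time points, 2 (0.469%) became 7 at an FDR of 5% (1.09%), 7 with DESeq2 (1.06%) and 1 to 5 when a replicate was left out (0.0347% to 1.17%). For MES against EPI at P5, 0 (0%) became 1 at an FDR of 5% (2.66%), 1 with DESeq2 (3.57%), 1 with no count filter (0.235%) and 2 with culture blocks (1.62%). For P8 against P5 in MES, 1 (0.699%) became 0 with all 47 libraries in 1 fit (0.0546%) and 0 with only the compared groups (0%). Without replicate 2 or replicate 3 no gene of any kind was called (0%), while without replicate 1 the share was larger than 0.699%. The count of Frizzled genes was 0 in each of these fits.

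With no replicate block, the pairing of experiments ignored, that last count was 0 as well, and no other count of Frizzled genes changed, although the genes called at P9 and P10 against P8 went from 271 to 37 and those at P8 against P5 in EPI from 49 to 0 and in MES from 132 to 1. Of 61 fold changes of Frizzled genes at least as large as their SE, steps between neighbouring time points left aside, none of 826 alternative values changed sign, 7 lost a call and 27 gained one. For FZD10-AS1 2 of 122 values lost a call and 1 gained one. In the test of any change over time, which has no direction, 7 of 120 values lost a call and 1 gained one. For 43 such fold changes at the steps, the one from t0 to 36 h included, 7 of 516 values changed sign, 2 lost a call (FZD4 from 36 h to P1) and 15 gained one. Of 29 fold changes smaller than their SE, steps left aside, 19 changed sign, and no direction is read from those fitted values. The cause of these shifts was not tested.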
